A study of Mus musculus with 5 samples.

Results

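The Id proteins and the bone morphogenetic protein (BMP) pathway that controls them were examined in mouse liver as 8 genes: Id1, Id2, Id3, Id4, Smad6, Smad7, Bmp6 and Bmpr1a. They were found by gene symbol or older synonym in the platform annotation, which gave 9 of the 29922 probes, since Bmpr1a had 2 probes and each of the others 1, and 8 of 16637 named genes. The set was chosen by the measured level of Id3, which had been seen lower with nordihydroguaiaretic acid (NDGA) in both obesity models, so the NDGA differences of Id3 are given as a description.

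Liver RNA was hybridised to 1-colour (Cy5) Phalanx Mouse OneArray slides, with 1 array for each of 5 groups of mice on the C57BL/6 background. Wild-type (WT) mice ate chow, a high-fat diet, or a high-fat diet to which NDGA was added at 2.5 g in each kg. The ob/ob mice, which lack leptin, ate chow either plain or with NDGA at that dose. Each diet lasted 16 weeks. Per the series' design text, RNA came from 3 animals per group; the sources used here do not say whether it was pooled, and give neither sex nor age. NDGA, a lignan of the creosote bush, is an antioxidant and an inhibitor of lipoxygenases. The ob/ob mutation removes leptin from the whole animal for life, so that ob/ob mice overeat on chow; the high-fat diet makes WT mice obese. With 1 array per group no test, p-value or error between mice could be computed, and every difference is one between 2 arrays.

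Id proteins are helix-loop-helix proteins without a DNA-binding region. They bind the E proteins, such as that encoded by Tcf3, and keep them and their partners off DNA. BMP ligands bind pairs of type I and type II receptors, which phosphorylate SMAD1, SMAD5 and SMAD9; with SMAD4 these enter the nucleus and switch on Id genes, Smad6 and Smad7. SMAD6 and SMAD7 then restrain the receptors, a negative feedback. In liver, BMP6 from sinusoidal endothelial cells acts on hepatocytes, with hemojuvelin (Hjv) as a coreceptor, to raise hepcidin (Hamp), the hormone that lowers iron uptake.

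The promoters of Id3 and Smad6 are shown because these are SMAD target genes whose probes passed the filter on dim values given below and whose promoter was in the RefSeq table of build GRCm38.p6, which held 6 of the 8 genes. Each run is the 250 bases before the table's start site, which for Smad6 lies inside the gene's annotated span, at chr4:136143572-136143821 on the plus strand for Id3 and chr9:64022060-64022309 on the minus strand for Smad6. Capitals mark GTCT, the core letters that SMAD proteins recognise, or its reverse complement AGAC.
Id3: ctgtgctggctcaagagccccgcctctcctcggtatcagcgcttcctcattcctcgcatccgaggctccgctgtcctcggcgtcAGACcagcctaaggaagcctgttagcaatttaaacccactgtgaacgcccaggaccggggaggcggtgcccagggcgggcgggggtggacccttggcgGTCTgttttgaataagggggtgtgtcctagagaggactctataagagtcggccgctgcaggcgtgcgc
Smad6: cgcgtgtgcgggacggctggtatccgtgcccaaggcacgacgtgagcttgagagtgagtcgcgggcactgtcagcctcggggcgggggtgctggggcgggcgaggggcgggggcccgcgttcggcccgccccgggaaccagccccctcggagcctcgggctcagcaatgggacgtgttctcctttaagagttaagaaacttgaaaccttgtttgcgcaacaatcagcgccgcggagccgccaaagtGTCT
The Id3 window held 2 matches to GTCT on either strand, starting 166 and 68 bases before the start site, and the Smad6 window held 1, starting 4 bases before it. Of all 32851 windows of this length in the table, 82.9% held at least 1 match and 54.9% at least 2, so such matches are common. The GC-rich SMAD1 and SMAD5 letters GGCGCC, present in 9.59% of windows, and the E-box CANNTG, to which E proteins bind and which 66.2% of windows held, were searched on both strands without a match in these 2 windows. The motifs do not overlap each other here.

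The deposited values are probe intensities on a linear scale. Their median over all probes ran from 38.1 on the ob/ob chow array to 71.0 on the ob/ob chow with NDGA array, and 45.1% to 54.1% of probes lay below an intensity of 50. Values were therefore taken as log2(intensity + 50) and quantile normalized over the 5 arrays; all log2 values and differences below are on that scale unless deposited values are named, and it understates differences of dim probes. Genes whose mean over the 2 arrays compared reached the median of all genes are called expressed, 8319 in each comparison. Between probes of the same gene, with 2 bright probes each, the SD per probe of the log2 difference was 0.29 to 0.45 across the 4 comparisons; it is the only measure of error here and does not include the spread between mice. Of 8 hepatocyte markers, 6 or 7 exceeded the background gauge described below on each array; Alb read 62274 or more and Apoa1 39777 or more.

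Of the 8 genes, 4 passed the filter on dim values in each of the 4 comparisons: Id1, Id3, Smad6 and Bmpr1a. Id2, Id4, Smad7 and Bmp6 were dim on all 5 arrays. Probes of olfactory receptors, genes with no known use in liver, served as a gauge of background: of 703 such probes the 95th percentile lay between 425 and 700.1 on the 5 arrays. Only the Id1 and Id3 probes exceeded it, on 5 of 5 arrays each.

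Id3, the Id protein on which the selection rested, gave the widest range of the 8. Its probe (gene at chr4:136143822-136145392, GRCm38.p6) read an intensity of 8151 in WT on chow, 8933 in WT on high-fat diet, 4025 in WT given NDGA with the high-fat diet, 14424 in ob/ob on chow and 13172 in ob/ob on chow with NDGA. The WT array with NDGA was the lowest and both ob/ob arrays were the highest as deposited. After normalization the log2 levels were 13.11, 13.16, 12.13, 14.23 and 13.03 in the same order, a range of 2.10. On that scale the ob/ob array with NDGA was at the level of lean WT, since that array was brighter as a whole. Both WT arrays without NDGA and the ob/ob array with NDGA lay within 0.13 of each other, less than the SD per probe, and cannot be placed in order.

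Id1, the Id gene most used as a readout of BMP signalling in liver, lies at chr2:152736251-152737410. Its probe read 2236 in WT on chow, 2066 on high-fat diet, 2154 on high-fat diet with NDGA, 2896 in ob/ob on chow and 3236 in ob/ob with NDGA. The 3 WT arrays were close together and the ob/ob arrays were brighter. Normalized log2 levels were 11.24, 11.13, 11.18, 11.90 and 11.11, so that ob/ob on chow was alone above the others, which lay within 0.14 of each other.

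Smad6, the inhibitory SMAD that acts mainly on BMP receptors, lies at chr9:63953076-64022085. Its intensities were 218, 235, 172, 218 and 444 in WT on chow, on high-fat diet and with NDGA added, then in ob/ob on chow and with NDGA. The WT array with NDGA was lowest and the ob/ob array with NDGA highest; the normalized log2 levels were 8.16, 8.27, 7.80, 8.32 and 8.45. Between 82.5% and 93.7% of olfactory receptor probes were dimmer than it, so its level was not clear of that gauge.

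Bmpr1a encodes a type I BMP receptor (ALK3) and lies at chr14:34411061-34503336. Its brighter probe read 249, 291, 287, 225 and 436 in the same order of arrays, with normalized log2 levels between 8.33 and 8.52, the narrowest range of the 4 expressed genes (0.19). Its dimmer probe read 105, 103, 229, 133 and 184 and was highest on the WT array with NDGA. The 2 probes thus disagreed there, and counts below use the brighter one, with the dimmer one's value beside it.

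The 4 dim genes gave no more than limits. Id2, widely made in liver, read 21.6, 21.6, 8.66, 12.8 and 14.1 on the 5 arrays in the same order. Id4 read 4.24, -1.65, 5.02, 0.28 and 4.52, with 1 value below 0. Smad7, the inhibitory SMAD shared with TGF-beta signalling, read 7.45, 6.11, 5.95, 4.68 and 4.40. Bmp6 read 16.1, 18.9, 14.8, 16.3 and 50.9, and was the only one of them above an intensity of 50 on any array. Between 0.71% and 63.4% of olfactory receptor probes lay below these 4 probes, so differences among their values are not described as changes in RNA.

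**Figure D1:**
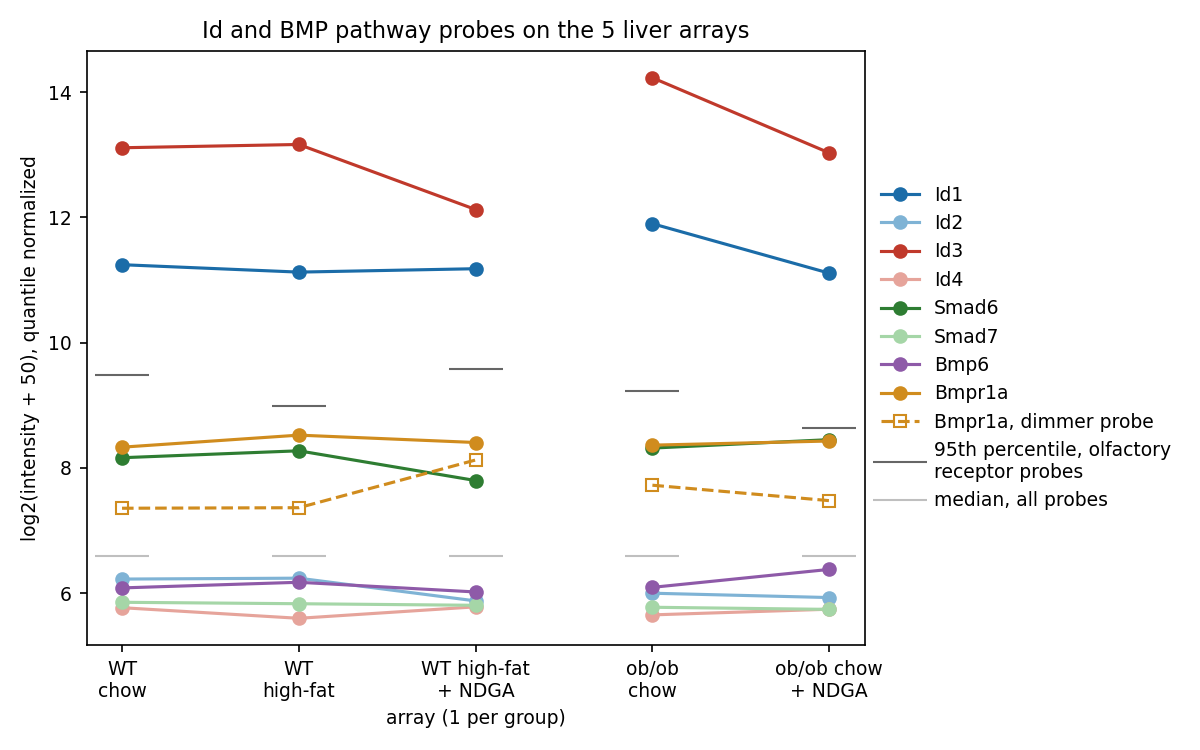
Normalized log2(intensity + 50) of the 9 probes of the 8 genes (vertical axis) on each of the 5 arrays (horizontal axis, 1 array per group); dark dashes mark the 95th percentile of 703 olfactory receptor probes and light dashes the median of all probes. Id3 runs from 12.13 to 14.23 and Id1 from 11.11 to 11.90, both above the dark dashes, whereas Id2, Id4, Smad7 and Bmp6 stay below the light ones.

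The first comparison set the array of WT mice on high-fat diet against that of WT mice on chow. None of the expressed members differed by 1.5-fold in either direction (0 of 4), where 10.4% of all expressed genes were higher and 6.07% lower by that much. Id3 was at 0.05 on the log2 scale, Id1 at -0.12, Smad6 at 0.11 and Bmpr1a at 0.19 (0.0085 by its dimmer probe), each smaller than the SD per probe of 0.35. The median over all 8 genes was 0.03, beside -0.0031 over all genes on the array. The central 90% of expressed genes lay between -0.63 and 0.78.

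For NDGA in diet-induced obesity, the 2 WT high-fat arrays, with and without it, were compared. Id3 was 2.05-fold lower (log2 difference -1.04, from 8933 to 4025) and was the only expressed member apart by 1.5-fold, 1 of 4. By that much 9.63% of all expressed genes were lower and 8.07% higher; since Id3 was chosen for this difference, the count says nothing more. Smad6 was lower by less than 1.5-fold (-0.47, beyond the SD per probe of 0.33), Id1 was at 0.05, or -0.06 with arrays centred on their median, and the brighter Bmpr1a probe was at -0.12 against 0.76 for the dimmer one. The median over the 8 genes was -0.14, beside -0.01 over all genes. Id3 on this array was also lower than in WT on chow (-0.99). Without normalization Id3 was at -1.14 and with arrays centred on their median at -1.26.

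For genetic obesity, the 2 chow arrays were compared, ob/ob against WT. Id3 was 2.17-fold higher (log2 difference 1.12, from 8151 to 14424) and Id1 1.57-fold higher (0.65, from 2236 to 2896), whereas Smad6 (0.15) and the brighter Bmpr1a probe (0.03) were within the SD per probe of 0.29 and the dimmer one (0.37) beyond it. Thus 2 of 4 expressed members were higher by 1.5-fold and 0 lower, where 3.67% of all expressed genes were higher and 3.85% lower; this comparison shares the ob/ob chow array with the one Id3 was chosen on, so the count is a description. Without normalization Id3 was at 0.82 and Id1 at 0.37, and 1 of 4 was past 1.5-fold, as with arrays centred on their median. The median over the 8 genes was 0.02, beside 0.01 over all genes. Id3 and Id1 were likewise higher in ob/ob on chow than in WT on high-fat diet, by 1.06 and 0.77.

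For NDGA in genetic obesity, the 2 ob/ob arrays were compared. Id3 was 2.30-fold lower (-1.20) and Id1 1.73-fold lower (-0.79) after normalization, Smad6 was at 0.13 and Bmpr1a at 0.07 (-0.25 by its dimmer probe), and the SD per probe was 0.45. By 1.5-fold, 2 of 4 expressed members were lower and 0 higher, where 10.9% of all expressed genes were lower and 16.8% higher; Id3 was chosen for this difference, so nothing is read from the count. These values depended on how the brighter NDGA array was brought to the level of the other. As deposited, Id3 was at -0.13 (14424 to 13172) and Id1 at 0.16 (2896 to 3236). The members then past 1.5-fold were Smad6 (0.88) and Bmpr1a (0.82, but 0.35 by its dimmer probe). Both were higher and neither was above the olfactory receptor gauge on any array. On the deposited scale 4722 of 8319 expressed genes were likewise higher by 1.5-fold and 6 lower, so nothing is read from these 2 members. With arrays centred on their median Id3 was at -0.59 and Id1 at -0.30, with a loess of the difference on brightness at -1.03 and -0.62, and with arrays scaled to their 90th percentile at -1.05 and -0.75. Thus Id3 was lower by 1.5-fold under every scaling named here except none, and Id1 was higher without scaling. With median centring Id3 only just reached that cutoff, which is 0.585 on the log2 scale. Its value there lay further from the quantile normalized one than the SD per probe. The median over the 8 genes was 0.02, beside -0.02 over all genes.

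**Figure D2:**
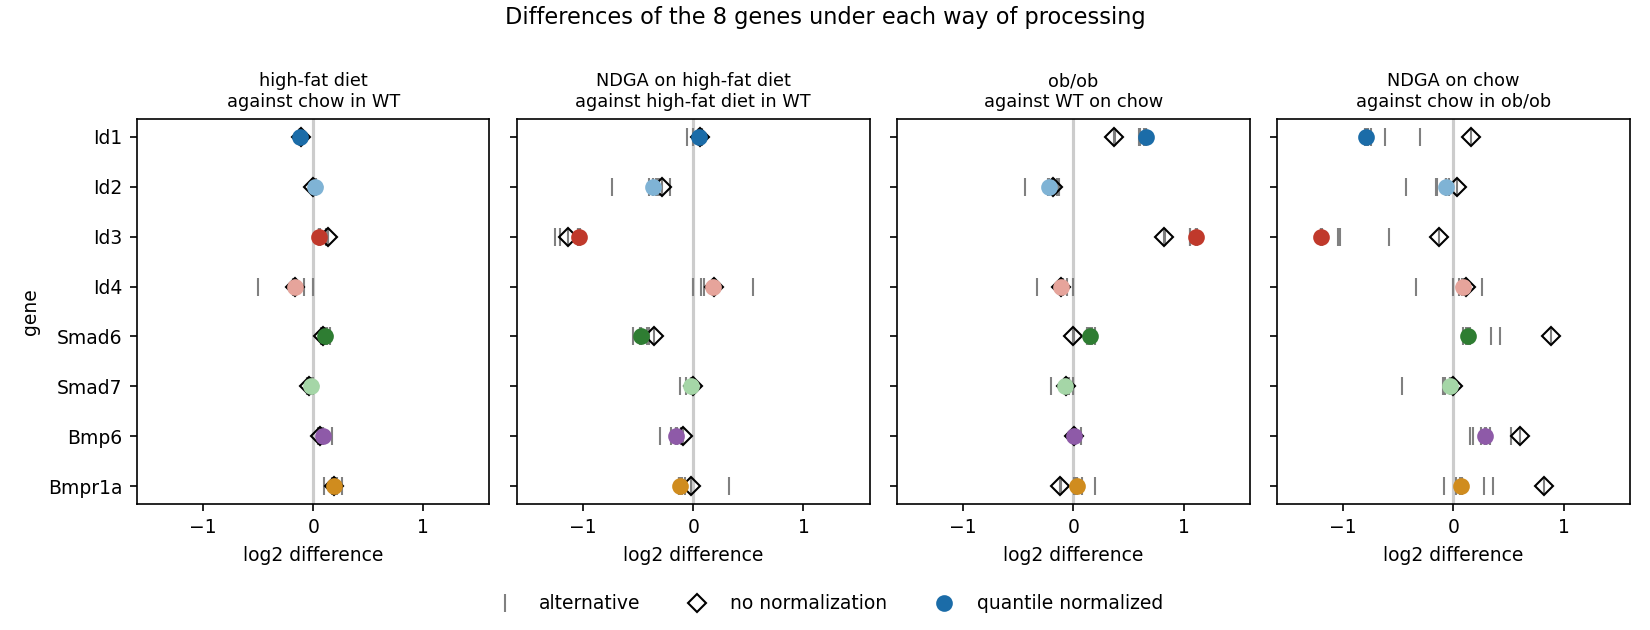
Log2 difference of each of the 8 genes (horizontal axis) in the 4 comparisons (panels); filled circles are quantile normalized values, open diamonds deposited values without normalization, and ticks the other alternatives. Id3 with NDGA in WT keeps between -1.26 and -1.03, but with NDGA in ob/ob it runs from -1.20 to -0.13 and Id1 from -0.80 to 0.16.

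Side by side, the values Id3 was chosen on were -1.04 in WT and -1.20 in ob/ob after quantile normalization, -1.26 and -0.59 with arrays centred on their median, and -1.14 and -0.13 as deposited. Id1 was at 0.05 and -0.79, a gap of 0.84. The 2 comparisons share no array. Of 8071 genes expressed in both, 723 were apart by 1.5-fold in both, and of these 690 went in opposite directions, 16 were lower in both and 17 higher in both. Id3 was among the 16, which is what it was chosen for. These counts depended on the scaling. With arrays centred on their median 790 of 820 went in opposite directions, and Id3 was lower by 1.5-fold in both, only just so in ob/ob. As deposited 529 of 665 were opposite, 135 were higher in both and Id3 was not past 1.5-fold in ob/ob.

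Beside Id3, markers of other liver cell types also moved. In bulk tissue, fewer cells of a type and less RNA per cell cannot be told apart. Of 10 markers of Kupffer cells and macrophages, 6 of 9 expressed were lower by 1.5-fold with NDGA in WT and 0 higher, and their mean log2 level fell by 0.80; in ob/ob with NDGA 2 were higher and 1 lower, with a mean difference of 0.12. In ob/ob against WT, 6 of 9 were higher and 0 lower (mean 0.69), and with the high-fat diet, where Id3 was at 0.05, also 6 of 9 and 0 (mean 0.73). Over all expressed genes, 8.07% were higher and 9.63% lower with NDGA in WT, and 16.8% and 10.9% with NDGA in ob/ob. These shares were 3.67% and 3.85% in ob/ob against WT, and 10.4% and 6.07% with the high-fat diet. As the mean of their 2 probes, Cd68 and Csf1r were under 1.5-fold with NDGA in WT (-0.48 and -0.55). With the high-fat diet they were too (0.52 and 0.56), and Csf1r also in ob/ob against WT (0.58). The summed deposited intensity of the macrophage markers was 5973 in WT on chow, 9363 on high-fat diet, 5200 with NDGA, 9926 in ob/ob on chow and 17129 in ob/ob with NDGA. Of 10 stellate cell and fibroblast markers, 5 of 9 expressed were lower and 1 higher with NDGA in WT (mean -0.66), and 3 were higher and 1 lower in ob/ob (mean 0.08). As the mean of probes, Reln (-0.14) and Acta2, the 1 that was higher (0.17), were under 1.5-fold with NDGA in WT. With NDGA in ob/ob, Reln (0.12), Col3a1 (0.34) and Ngfr (-0.49) were too. The sums of the stellate cell and fibroblast markers were 4071, 7774, 5913, 6122 and 11182.

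Sinusoidal endothelial markers, of cells in which Id genes are also active, had a mean difference of -0.39 with NDGA in WT (3 of 10 expressed lower, 0 higher) and of -0.04 in ob/ob (1 of 9 higher, 0 lower). Their sums were 24312, 26058, 21832, 24088 and 37926. Hepatocyte markers had means of -0.18 and 0.52. These include Alb, above an intensity of 65000 on every array but ob/ob chow, and Apoa1, above it on the ob/ob array with NDGA. At that level probes may be saturated, so such differences may be understated. Of 10 skeletal muscle markers, 4 of 5 expressed were higher and 1, Tnnt3, lower with NDGA in WT (-0.76). The list had a mean difference of 1.78 with NDGA in WT and 0.82 in ob/ob, with sums of 227, 516, 4540, 948 and 3202. Ckm, the muscle creatine kinase, read 1501 on the WT array with NDGA and 11.7 on the high-fat array without it. Tnnt3 read 64.7, 365, 215, 783 and 1813 on the arrays in the order of the sums. It made up most of the sum on the high-fat array without NDGA and on both ob/ob arrays. Cholangiocyte and blood cell lists had means of -0.27 and -0.31 in WT and -0.12 and -0.11 in ob/ob. As deposited, the means with NDGA in ob/ob were higher for all 7 lists, from 0.53 for cholangiocytes to 1.23 for skeletal muscle and hepatocytes. Epcam, Oit3, Cd5l and Tat did not exceed the olfactory receptor gauge on any array. Neither did Kdr, Flt4, Lrat, Pdgfrb, Col1a1, Marco, Krt7, Krt19, Cd79a and S100a8. The same held for the muscle markers Acta1, Tnni2, Myh4, Mylpf, Actn3, Atp2a1 and Mb. Among these, Col1a1, Marco, Mylpf and Mb were counted as past 1.5-fold in at least 1 comparison. The part of the marker shifts in the Id3 values was not tested.

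**Figure D3:**
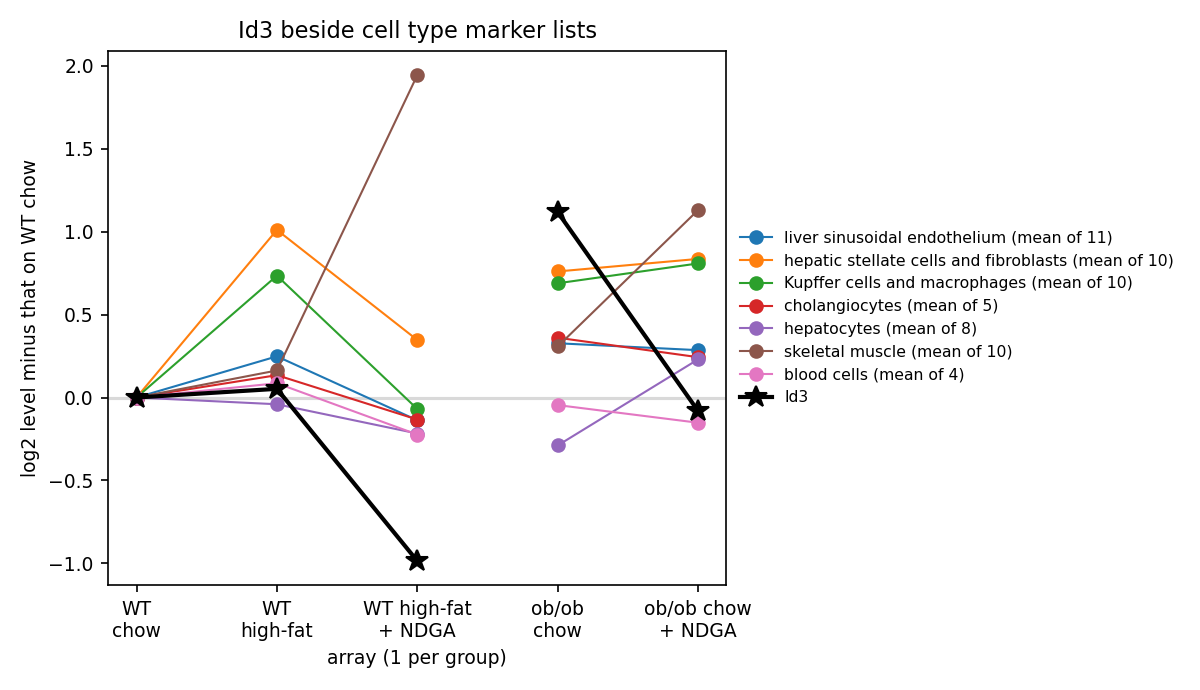
Mean normalized log2 level of 7 cell type marker lists (coloured circles, number of genes in the key) and of Id3 (black stars) minus the level on the WT chow array (vertical axis), for the 5 arrays (horizontal axis, 1 per group). Id3 drops to -0.99 on the WT array with NDGA, where skeletal muscle markers reach 1.94, and from 1.12 to -0.08 in ob/ob with NDGA, where macrophage markers go from 0.69 to 0.81.

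The rest of the pathway was described by 7 lists of 75 genes, 72 of them on the array and 40 or 41 expressed in each comparison. Of the 72, 12 exceeded the olfactory receptor gauge on all 5 arrays and 47 on none. Among the genes named below, Nog, Rgmb, Inhba, Bmp2, Bmpr2 and Tcf4 exceeded it on 0 arrays and Acvr1, Tmprss6, Smad1, Twsg1 and Tgfbr2 on 1, so their differences come from probes not clear of background. With the high-fat diet 7 were higher and 4 lower by 1.5-fold, with NDGA in WT 3 higher and 6 lower, in ob/ob against WT 3 higher and 1 lower, and with NDGA in ob/ob 8 higher and 7 lower. Of all expressed genes, 10.4% were higher and 6.07% lower with the high-fat diet, and 8.07% and 9.63% with NDGA in WT. The shares were 3.67% and 3.85% in ob/ob against WT, and 16.8% and 10.9% with NDGA in ob/ob. The medians over the expressed list genes were -0.09, 0.05, 0.06 and -0.19, beside -0.01, -0.03, 0.04 and -0.09 over all expressed genes. Without normalization the splits were 8 and 4, 7 and 5, 2 and 2, and 22 and 0, and with arrays centred on their median 7 and 4, 2 and 7, 2 and 2, and 10 and 0; a loess gave 8 and 4, 3 and 6, 3 and 2, and 10 and 1. Over all expressed genes, the NDGA comparison in ob/ob had 1398 higher and 910 lower by 1.5-fold, or 4722 and 6 without normalization.

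Among the 11 BMP ligands, Gdf2 encodes BMP9, which stellate cells make and which activates ALK1 on endothelium. It read 355, 603, 445, 333 and 1058 on the 5 arrays in the order used above. It was thus higher with the high-fat diet (0.69) and with NDGA in ob/ob (0.68; 1.53 as deposited), and at -0.49 with NDGA in WT. Bmp7, a ligand that opposes TGF-beta in fibrosis, read 910.3 in WT on chow and 432 to 682 elsewhere; it was lower with the high-fat diet (-0.99 as deposited) and at -0.70 with NDGA in ob/ob, or 0.13 as deposited. Bmp2, the other main ligand of liver endothelium, read 62.6 to 182. It passed the filter on dim values only with NDGA in ob/ob, at 0.49 (1.04 as deposited).

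Of 14 receptors and coreceptors, 9 were expressed. Hjv, the hemojuvelin coreceptor, read between 25553 and 44360, and its difference was 0.36 with the high-fat diet, 0.07 with NDGA in WT (-0.11 as deposited), 0.58 in ob/ob and -0.41 with NDGA in ob/ob, or 0.53 as deposited. Tfr2, the transferrin receptor that senses iron on hepatocytes, was lower with the high-fat diet (-0.73) and with NDGA in ob/ob (-0.77), though in the latter 0.35 as deposited, and at 0.41 with NDGA in WT. Acvr1, which encodes the type I receptor ALK2, read 221, 360, 230, 198 and 556. It was higher with the high-fat diet (0.62), lower with NDGA in WT (-0.66) and at 0.53 with NDGA in ob/ob (1.29 as deposited). Tmprss6, the protease that cleaves hemojuvelin, was at -0.50 with NDGA in WT and 0.68 in ob/ob, or 1.47 as deposited. Rgmb, a hemojuvelin relative, was at 0.54 and -0.60, but as the mean of its 2 probes at 0.24 and -0.22, and as deposited at 0.14 in ob/ob. Bmpr2, the main type II receptor, was at background, with a highest intensity of 2.33.

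Among the signal carriers, Smad1, which BMP receptors phosphorylate, read 171, 275, 173, 138 and 557 on the 5 arrays. It was lower with NDGA in WT (-0.65) and higher with NDGA in ob/ob (0.96; 1.69 as deposited), on the array that was also the brightest overall. Smad4, the shared partner, was at -0.31 and -0.18 (0.67 as deposited), but as the mean of its 2 probes at -0.32 and 0.32. Smad3, which belongs to the TGF-beta branch, was at 0.05 and -0.65 (0.21 as deposited).

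Among inhibitors and turnover factors, Fstl1, a secreted follistatin-like protein of mesenchymal cells, read 241, 673, 246, 462 and 864. It was higher with the high-fat diet (1.32) and in ob/ob (1.02) and lower with NDGA in WT (-1.39), and near 0 with NDGA in ob/ob, or 0.84 as deposited. Twsg1, which modulates BMP binding to chordin, was at -0.47 with NDGA in WT and 0.87 in ob/ob (1.66 as deposited, 0.41 as the mean of its probes), and Nog, the BMP trap noggin, at 0.47 and -0.82 (-0.02 as deposited). Fkbp1a, which holds type I receptors inactive, was at -0.22 and 0.34 (1.34 as deposited, 0.12 as the mean of its probes). Smurf1, a ubiquitin ligase for SMADs and receptors, was at 0.56 and -0.53 (0.29 as deposited), or 0.37 and -0.45 as the mean of its probes.

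Among liver targets, Hamp, the hepcidin gene, read 18170.0, 29187, 18246, 21729 and 36939.9 on the 5 arrays. The WT array on high-fat diet without NDGA and the ob/ob array with NDGA were the brightest. Its differences were 0.56 with the high-fat diet, -0.49 with NDGA in WT, 0.51 in ob/ob and -0.25 with NDGA in ob/ob, none past 1.5-fold. As deposited they were 0.68, -0.68, 0.26 and 0.76, past it in all but the third. Hamp and Hamp2 are closely related copies and their probes may share signal; Hamp2 was at 0.42, -0.36, -0.01 and 0.86, the last 1.92 as deposited. Tsc22d1, a leucine zipper gene first found as induced by TGF-beta, read 917, 3535, 1042, 961 and 5329. It was higher with the high-fat diet (1.84), lower with NDGA in WT (-1.74) and higher with NDGA in ob/ob (1.45, or 2.41 as deposited). Msx1 and Msx2, homeobox genes induced by BMP in embryos, were at 0.73 and 0.59 with NDGA in WT and at -0.67 and -0.19 in ob/ob, or 0.16 and 0.72 as deposited.

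Of the 3 E-protein genes only Tcf3 was expressed. It was at -0.21 with the high-fat diet, 0.23 with NDGA in WT and -0.21 in ob/ob. With NDGA in ob/ob it was at -0.17 (0.77 as deposited), and it was below 1.5-fold throughout after normalization. As the mean of its 2 probes, Tcf3 was at -0.10, 0.0043, -0.06 and -0.05 in that order. Tcf4 had a mean intensity of 31.1 over the 5 arrays. In the TGF-beta and activin branch, Inhbe, the activin E subunit that hepatocytes secrete, read 1639, 3059, 1443, 1787 and 2893 and was higher with the high-fat diet (0.88) and lower with NDGA in WT (-1.09). Tgfbr1, the type I TGF-beta receptor, was at -0.78 with NDGA in WT and 0.95 in ob/ob (1.82 as deposited). As the mean of its 3 probes, however, it was at -0.33 and 0.24. Tgfbr2, the type II receptor, was at -0.57 and 0.72 (1.58 as deposited), or -0.21 and 0.45 as the mean of 2 probes. Acvr1b, an activin receptor, was at 0.76 with NDGA in WT (0.17 as the mean of 3 probes), and Inhba, another activin subunit, at -0.68 with NDGA in ob/ob (-0.02 as deposited).

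**Figure D4:**
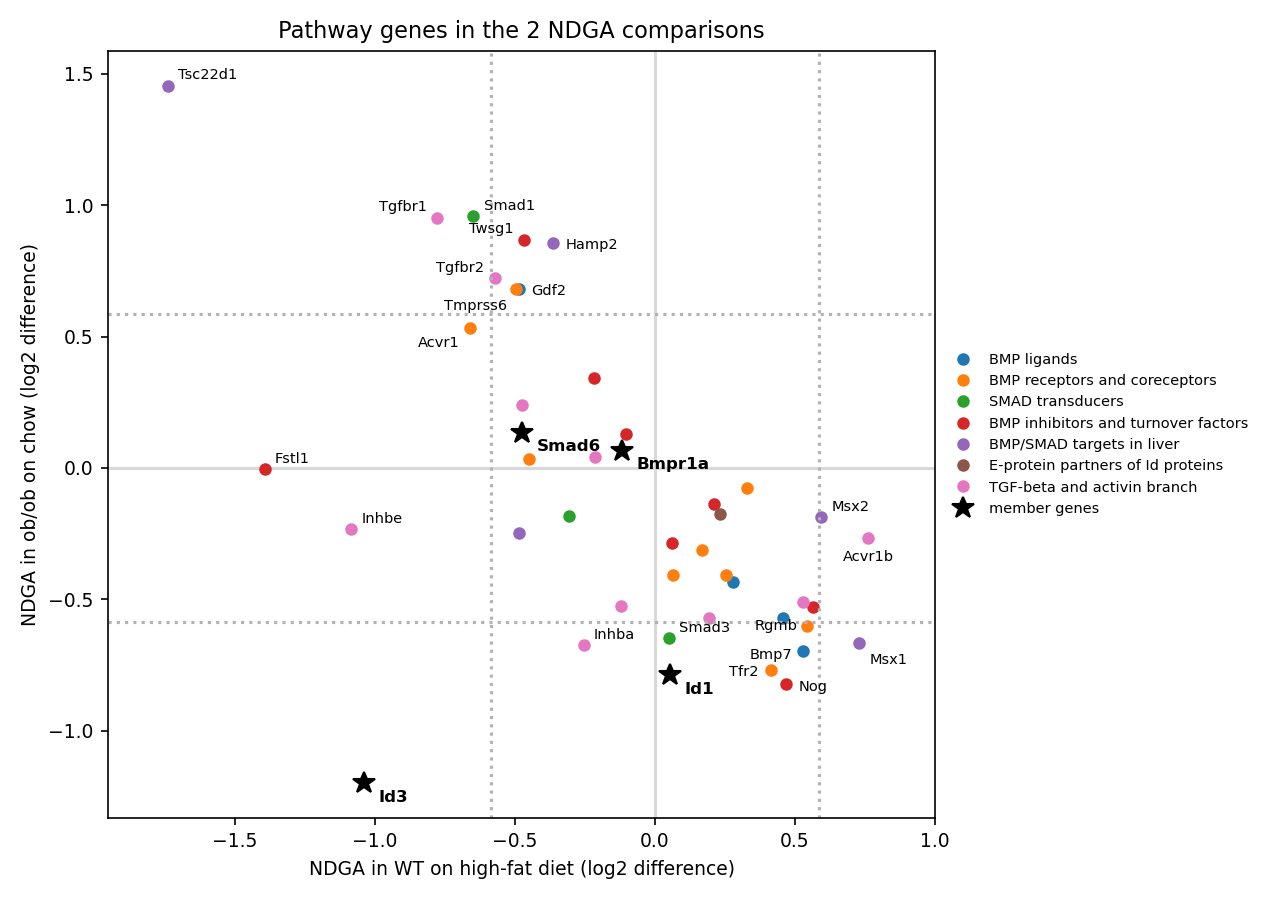
Log2 difference with NDGA in WT on high-fat diet (horizontal axis) against that in ob/ob on chow (vertical axis) for the 40 pathway genes expressed in both and the 4 expressed member genes (stars), quantile normalized; dotted lines mark 1.5-fold, and genes past it on either axis are named. Id3 lies lower on both axes, at -1.04 and -1.20, while Tsc22d1 lies at -1.74 and 1.45; without normalization the vertical values of Id3 and Tsc22d1 are -0.13 and 2.41.

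The genes with a pattern most like that of Id3 were sought among the 1208 genes that were expressed on average and whose range over the 5 arrays was at least that of Id3 divided by 2. Likeness was the Euclidean distance between log2 levels centred on each gene's mean, over 5 arrays, which share the same normalization. The nearest were Gpi1 (0.57), a glycolytic isomerase, Vsig4 (0.60), a complement receptor of Kupffer cells, Tceal9 (0.66), Btg1 (0.67), an antiproliferative gene, and Tagln2 (0.67), an actin-binding protein. Vsig4 read 2041, 2092, 1533, 3522 and 4513 on the 5 arrays, and its differences were 0.04 with the high-fat diet, -0.48 with NDGA in WT, 1.10 in ob/ob and -0.65 with NDGA in ob/ob. Gpi1 was at 0.40, -0.93, 1.17 and -0.57 in the same comparisons. All 5 were higher, not lower, with NDGA in ob/ob as deposited, by 0.32 to 0.48, where Id3 was at -0.13. As the mean of their 3 probes, Gpi1 and Btg1 were both at 0.05 there. In ob/ob against WT, where Id3 was at 1.12, Btg1 was at 0.37. As the mean of probes, Btg1 was there at 0.05 and Gpi1 at 0.68. The search names 5 genes whatever the data, and no reference distance was computed.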

How the data were processed

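Liver RNA of 5 groups of mice was measured on 5 one-colour arrays, 1 per group. The authors deposited 1 table of linear probe intensity, as judged from its values, which run below 0; the sources used here do not name scanner, background correction or scaling. Of 29922 probes, 21020 carried 1 symbol, 0 several, and 8902 were unnamed here; 17558 symbols were current in RefSeq GRCm38.p6, 3410 were replaced through a unique synonym and 52 kept. For each of 16637 genes the probe brightest on average was used. Intensities were taken as log2(intensity + 50), the offset being larger than any negative value, and quantile normalized with numpy 2.4.6 and pandas 2.3.3 (Python 3.11.15). The steps were tested on simulated data in which 1 array was brighter by the same factor throughout. That test cannot decide which scaling is right for the ob/ob array with NDGA. No test was possible with 1 array per group, and differences past 1.5-fold were counted among genes at or above the median. The members and lists were chosen with earlier results of these data known. Named genes are all members, expressed list genes past 1.5-fold with NDGA, the 2 brightest of each list, and the 5 genes most like Id3; Bmp2, Bmpr2 and marker genes named beyond these were chosen after their values were seen. The other settings tried were 7 fixed at the outset (no normalization, median centring, loess with span 0.3 from statsmodels 0.14.6, offsets of 16, with lower values set to 1 before the logarithm, and 100, the mean of probes, a floor at the 25th percentile) and 2 filters for counts; scaling to the 90th percentile and quantile normalization before the logarithm were added after seeing the data. Depth has no meaning for arrays; their number limits the precision.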

Additional observations from a re-analysis of the deposited data

Results flagged for a closer look

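Genes of the pathway lists were singled out where the NDGA difference was past 1.5-fold in both models but in opposite directions; with 1 array per group this difference between models was not tested. Smad1 was at -0.65 in WT and 0.96 in ob/ob (gap -1.61), Tsc22d1 at -1.74 and 1.45 (gap -3.19), Tgfbr1 at -0.78 and 0.95 (gap -1.73) and Msx1 at 0.73 and -0.67 (gap 1.40). With arrays centred on their median the gaps were -1.88, -3.78, -2.17 and 0.99, in that order, and Msx1 was then at -0.29 in ob/ob, under 1.5-fold; as deposited it was at 0.16. As the mean of its 3 probes, Tgfbr1 was at -0.33 and 0.24. The Smad1 probe exceeded the 95th percentile of olfactory receptor probes on 1 of 5 arrays, those of Msx1 and Tgfbr1 on 3 and that of Tsc22d1 on 5. Over all genes past 1.5-fold in both comparisons after quantile normalization, 690 of 723 were opposite; as deposited they were 529 of 665, all of these lower in WT and higher in ob/ob, on an array that was brighter as a whole.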

How the results depend on the processing

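Of 288 values of the 8 genes under 9 alternatives, 276 moved by less than the SD per probe, 11 moved by more and 1 called difference reversed: Id1 with NDGA in ob/ob, at 0.16 without normalization. Many of the 276 could not move. The mean of probes leaves genes with 1 probe as they were, and the floor does so for the bright genes. The count is therefore no measure of stability. Id3 with NDGA in ob/ob ran from -1.20 to -0.13. With NDGA in ob/ob the median over the 8 genes was 0.02 after quantile normalization, 0.14 as deposited and -0.32 with arrays centred on their median. Counts of pathway genes past 1.5-fold fell from 11 to 7 with the high-fat diet and from 4 to 2 in ob/ob against WT with the mean of probes, and rose from 9 to 15 with NDGA in WT with an offset of 16; the causes were not tested. No paired analysis was possible because each group has 1 array, and no array could be left out. Dim probes of Id2, Id4, Smad7 and Bmp6 limit what can be said of those genes.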
